A study of Mus musculus with 12 samples.

Results

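The 41 genes described here encode parts of the muscle sarcomere, its Z-disc and the proteins that respond to mechanical load on both. They were compared in mouse gastrocnemius between sedentary groups and separate groups that had run once. The genes were chosen by symbol, with earlier results of these data known. Shares of them set beside those of all genes are therefore descriptive and not an independent test. A gene was kept when it had at least 10 counts in 3 or more of the 12 RNA sequencing libraries, and 40 of the 41 were kept, out of 14590 identifiers of the 43432 in the count table that pass the same rule. The gene left out, Nebl (the cardiac-type nebulin relative nebulette), had 0 to 11 counts per library. The kept genes nearest to the limit were Ankrd1, with 40 to 233 counts, and Myom3, with 62 to 685.

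All animals were male. Those of the WT groups carried 2 floxed alleles of the Feimin gene (fl/fl), and those of the MKO groups were cFeimin MKO littermates, in which cellular Feimin is knocked out. In each genotype 1 group stayed sedentary and 1 group ran for 90 min, at a speed set to 60% of each animal's maximum. Each of the 4 groups held 3 libraries, numbered 1, 3 and 4 in sedentary WT, 1, 2 and 3 in sedentary MKO, 3, 4 and 5 in exercised WT, and those of exercised MKO were numbered 1, 2 and 4. Neither the labels nor the design text give the age, the strain, the Cre driver or the time between the run and sampling. They do not give the hour of sampling, so a change with the run and a change with the hour cannot be told apart. The labels do not state in words that the libraries of a group come from separate animals, so a p-value here measures the spread between libraries, which may be technical.

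The sarcomere is the repeating contractile unit of the muscle fibre. Thin actin filaments are anchored at the Z-disc by alpha-actinins, thick myosin filaments are held together at the M-band by myomesins, and titin spans from one to the other. Filamin C, the Xin proteins, the muscle ankyrin repeat proteins and small chaperones such as alpha-B-crystallin gather at the Z-disc or at damaged sites when fibres are loaded, and several of their genes are known to respond to stretch or to unaccustomed contraction.

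The promoter of Xirp2, the only gene of the 3 called on all 12 libraries that has a usable promoter entry, is shown because MEF2 factors are established regulators of this gene. The sequences are from RefSeq on GRCm38.p6 and end at the base before the transcription start. The Xirp2 stretch, chr2:67445752-67446001 on the plus strand, covers 250 bases, and the capitals mark its single match to the MEF2 site, which begins 74 bases before the start.

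Xirp2: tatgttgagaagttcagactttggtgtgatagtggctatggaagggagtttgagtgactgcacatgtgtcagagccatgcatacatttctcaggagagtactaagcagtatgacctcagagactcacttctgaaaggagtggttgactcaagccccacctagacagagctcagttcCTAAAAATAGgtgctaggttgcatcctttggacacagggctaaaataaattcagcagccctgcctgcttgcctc

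The same window held 2 E-boxes (CANNTG, the site of myogenic factors such as MyoD), 0 CArG boxes (the site of SRF) and 0 MCAT elements (CATTCC, the site of TEAD factors), searched on both strands. Of the 40 kept genes 29 had a promoter entry, with 34 promoters between them. A MEF2 site lay within 250 bases of the start in 5 of these 34 (14.7%), against 2.92% of all 32851 promoters, and a CArG box in 5 (14.7%), against 1.47%. MCAT elements were found in 8 (23.5%), against 12.6%, and E-boxes in 26 (76.5%), against 66.2%. Of the other MEF2 matches 3 are shown with 10 bases on each side, so that their cores can be read against that of Xirp2. They were chosen by the match and not by how the genes moved. They lie at chr2:76982694-76982723 (Ttn, minus strand), chr3:123236366-123236395 (Synpo2, minus) and chr4:135759670-135759699 (Myom3, plus).

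Ttn: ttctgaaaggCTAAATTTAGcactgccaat
Synpo2: agcccggctaCTATTTATAGaataattaaa
Myom3: ctcagcgctgCTATATTTAAgacggttaca

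The matches begin 166, 236 and 35 bases before the start, in that order. A match describes these letters only. The Ky entry of RefSeq starts 388 bases inside the gene model used for the counts and is not shown.

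The libraries held 14324010 to 14563501 counts each, and the 40 genes took 7.87% to 10.1% of them, with skeletal alpha-actin (Acta1) alone at 2.61% to 3.86%. As a check of the labels, B230219D22Rik, taken here as the Feimin gene from general knowledge, had levels of 22.6 ± 1.41 CPM in WT at rest and 4.92 ± 1.25 in MKO at rest. Here CPM are counts scaled to a common library size with TMM factors, as mean ± SD of 3 libraries. After the run the levels were 25.4 ± 4.15 in WT and 4.06 ± 0.534 in MKO, so the label and the gene went together in every library. Skeletal muscle genes were high throughout: the 8 skeletal fibre markers summed to 72398 to 111154 CPM in every library. Of 8 cardiac markers Nppb and Myl7 had 0 counts in all 12. These sums cannot tell gastrocnemius from another skeletal muscle. The cardiac list as a whole summed to 57.3 to 1478 CPM, mostly from Actc1 (group means of 107 to 767 CPM) and Myh6 (33.8 to 64.0). Actc1 and Tnnt2 were higher on average in MKO (log2 differences of 1.77 to 2.60), and neither passed. The part of these genes in the results was not tested. Sedentary MKO replicate 3 and exercised WT replicate 5 stood apart from the rest of their groups in ways that touch these genes, described below, and values that moved most without them are given both ways.

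Levels were compared between genes per kb of exon. Acta1, the actin of the thin filament, was highest at 20174 CPM per kb (mean of 12 libraries), followed by the fast light chains Mylpf at 7558 and Myl1 at 4873, the titin cap Tcap at 2323 and the fast alpha-actinin Actn3 at 2054. At the other end stood the calsarcin Myoz3 at 4.96, the myomesin Myom3 at 4.78 and the stretch-responsive ankyrin repeat gene Ankrd1 at 2.40. Acta1 shares long near-identical stretches with other actin genes, so its reads could be divided between them in ways the deposited counts do not show. Within single genes the levels over the 12 libraries differed by 1.27 times (Acta1 and Unc45b) to 13.0 times (Csrp3).

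The first question is how a single run changed these genes in WT muscle. Of the 40 genes 3 rose and 0 fell in edgeR's quasi-likelihood test (adjusted p under 0.05, Benjamini-Hochberg over all 14486 genes tested). The share called was 7.5%, against 8.24% of all genes (4.14% higher and 4.1% lower), so the sarcomere genes as a set were called about as often as any gene. In bulk samples fewer fibres of a type and less RNA per fibre cannot be told apart. The 3 were Xirp1, Xirp2 and Ky, all placed in the group of mechanical stress, repair and chaperone genes. The groups were drawn up for this report, and the Ky and Xirp2 proteins also sit at the Z-disc. The median log2 fold change over the 40 was 0.10, with 28 positive, beside -0.01 and 48.9% positive over all genes. Only Xirp1 and Ky reached a change of 1 on the log2 scale.

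Ky encodes a peptidase-like protein of the Z-disc that binds filamin C, and its loss causes kyphoscoliosis in mice. It stands at chr9:102505750-102546239 on the plus strand. Its levels were 68.5, 128 and 89.2 CPM in sedentary WT and 190, 191 and 202 in exercised WT. The 3 exercised libraries lay within a narrow band, all above the highest sedentary one. The log2 fold change was 1.03 ± 0.20 (SE), a 2.04-fold rise (adjusted p = 0.00791 in edgeR). In MKO muscle the levels were 78.7, 73.8 and 84.0 CPM at rest and 155, 200 and 131 after the run, again without overlap.

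Xirp2 encodes a large actin-binding protein of the Xin family that sits at the Z-disc and the myotendinous junction. In sedentary WT its levels were 540, 723 and 567 CPM, and in exercised WT 1008, 946 and 1258. Every exercised library exceeded every sedentary one, and the log2 fold change was 0.81 ± 0.16 (adjusted p = 0.00739 in edgeR), a 1.76-fold rise. In MKO muscle the levels were 691, 630 and 797 CPM at rest and 940, 908 and 728 after the run. Here exercised MKO replicate 4 fell inside the sedentary range.

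Xirp1, the smaller Xin protein (chr9:120013755-120023598, minus strand), marks damaged and remodelling fibres and binds filamin C as well. It stood at 111, 121 and 191 CPM in sedentary WT and at 277, 310 and 464 in exercised WT, with a log2 fold change of 1.31 ± 0.35 (adjusted p = 0.0384 in edgeR), a 2.48-fold rise. In MKO muscle it stood at 253, 122 and 95.6 CPM at rest and at 185, 265 and 189 after the run. The sedentary MKO libraries were themselves far apart, and replicate 1 lay above 2 of the exercised ones. The Xirp1 call was close to the threshold: it was lost with 7 of the 12 libraries left out in turn (adjusted p = 0.0518 to 0.142 in edgeR), with the value itself between 1.06 and 1.46 in those fits. Xirp2 and Ky passed in WT whichever single library was left out. With the replicate number added to the model as a block neither passed (adjusted p = 0.0513 and 0.0604 in edgeR).

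**Figure D1:**
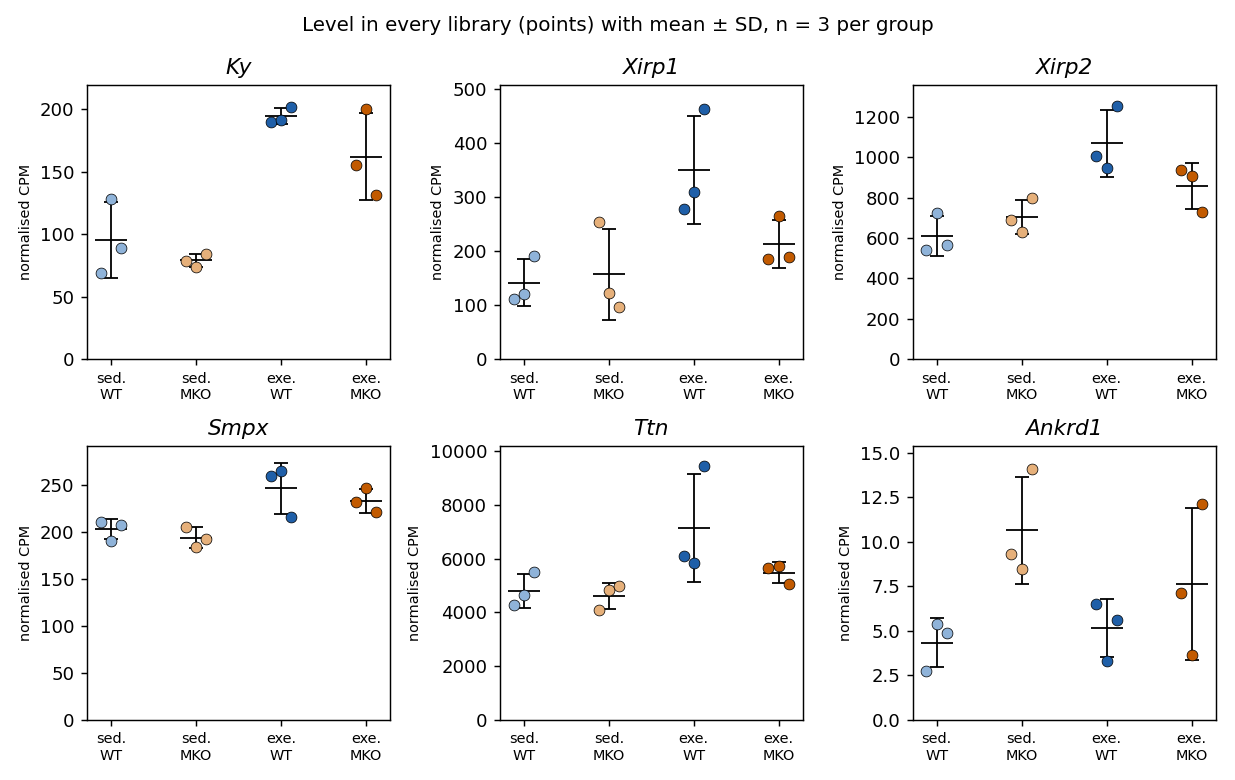
Level of 6 of the genes in every library (points, normalised CPM on linear axes that start at 0), with the mean (long bar) and SD (short bars) of the 3 libraries in each of the 4 groups. Ky lies higher after the run in both genotypes, at 190 to 202 CPM in WT and 131 to 200 in MKO, while the exercised WT point far above the others for Ttn is replicate 5 at 9448 CPM.

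Filamin C (Flnc), the actin crosslinker to which Ky and the Xin proteins bind, stood at 369, 321 and 438 CPM in sedentary WT and at 462, 476 and 648 in exercised WT. The groups did not overlap, but the log2 fold change of 0.49 ± 0.17 did not pass (adjusted p = 0.113 in edgeR) and was 0.32 without exercised WT replicate 5. In MKO muscle it stood at 443, 357 and 299 CPM at rest and 383, 426 and 384 after the run. Smpx, a small stretch-responsive protein, stood at 211, 191 and 208 CPM in sedentary WT and 260, 265 and 216 in exercised WT. Its MKO values were 206, 184 and 193 at rest and 232, 247 and 222 after the run. Both genotypes gave a small shift without overlap, 0.28 ± 0.10 (adjusted p = 0.117) in WT and 0.27 ± 0.10 (adjusted p = 0.207) in MKO. In WT the Smpx shift passed without exercised WT replicate 5 (0.37 ± 0.09, adjusted p = 0.0399) and with DESeq2 (adjusted p = 0.0447).

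The other members of the stress group did not pass and pointed both ways in WT. Ankrd2 and Csrp3, 2 genes of stretch sensing at the Z-disc and I-band, had log2 fold changes of -0.72 ± 0.53 and -0.55 ± 0.60, and the small heat shock protein Cryab had -0.03 ± 0.24. Cryab read 661, 930 and 529 CPM in sedentary WT, 899, 672 and 499 in exercised WT, 874, 729 and 926 in sedentary MKO and 1137, 823 and 1068 in exercised MKO. Unc45b, the myosin chaperone, was among the steadiest of all members at 168 to 213 CPM in the 12 libraries. Part of the Cryab exons lies over Hspb2 on the opposite strand (252 bases), and nothing in the labels says whether reads were assigned by strand.

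Titin and the thin filament came next in the WT response. The 7 genes had a median log2 fold change of 0.17, with 0 past the threshold. Titin (Ttn) stood at 4263, 4635 and 5494 CPM in sedentary WT and at 6084, 5849 and 9448 in exercised WT, a log2 fold change of 0.57 ± 0.18 (adjusted p = 0.0779 in edgeR). DESeq2 called it (0.58 ± 0.18, adjusted p = 0.0207). Nebulin (Neb), the ruler of the thin filament, stood at 2314, 2616 and 3019 CPM and then at 3039, 2913 and 4705, which gave 0.42 ± 0.18 (adjusted p = 0.188). In both genes replicate 5 lay far above the other 2 exercised libraries. Without it the changes were 0.32 ± 0.13 for Ttn and 0.17 ± 0.13 for Neb. In MKO muscle Ttn stood at 4076, 4813 and 4975 CPM at rest and 5663, 5731 and 5048 after the run, and Neb at 2223, 2610 and 2439 and then 2778, 2820 and 2403.

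Tropomodulin 1 (Tmod1), which caps the slow-growing end of the thin filament, stood at 246, 239 and 269 CPM in sedentary WT and 301, 306 and 282 in exercised WT. The log2 fold change of 0.24 ± 0.10 did not pass (adjusted p = 0.208). Its MKO values were 218, 223 and 260 CPM at rest and 248, 272 and 224 after the run. Leiomodin 3 (Lmod3), a nucleator of thin filaments, moved little, with 75.8, 73.8 and 67.2 CPM in sedentary WT, 84.5, 80.4 and 78.1 in exercised WT, 86.9, 76.9 and 68.8 in sedentary MKO and 83.5, 85.6 and 98.5 in exercised MKO. Leiomodin 2 (Lmod2) went the other way in WT, with a log2 fold change of -0.82 ± 0.49 that did not pass (adjusted p = 0.38) and groups that did not overlap.

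As the genes were grouped here, the thick filament, M-band and Z-disc groups held no gene past the threshold in WT. All 6 thick filament genes were positive (median 0.14), as were the 3 myomesins (median 0.16), while the 14 Z-disc genes had a median of -0.04. The fast myosin-binding protein Mybpc2 stood at 3351, 2820 and 4253 CPM in sedentary WT and 4364, 5138 and 4108 in exercised WT, and the change of 0.38 ± 0.16 did not pass (adjusted p = 0.196). In MKO muscle it stood at 2848, 3264 and 3459 CPM at rest and 3867, 4434 and 3363 after the run. The fast regulatory light chain Mylpf stayed between 6518 and 9649 CPM in the 12 libraries, with 6849, 7262 and 8060 in sedentary WT, 8221, 8205 and 6518 in exercised WT, 7666, 8153 and 9241 in sedentary MKO and 7936, 8562 and 9649 in exercised MKO. The sedentary and exercised groups overlapped for both genes in MKO.

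**Figure D2:**
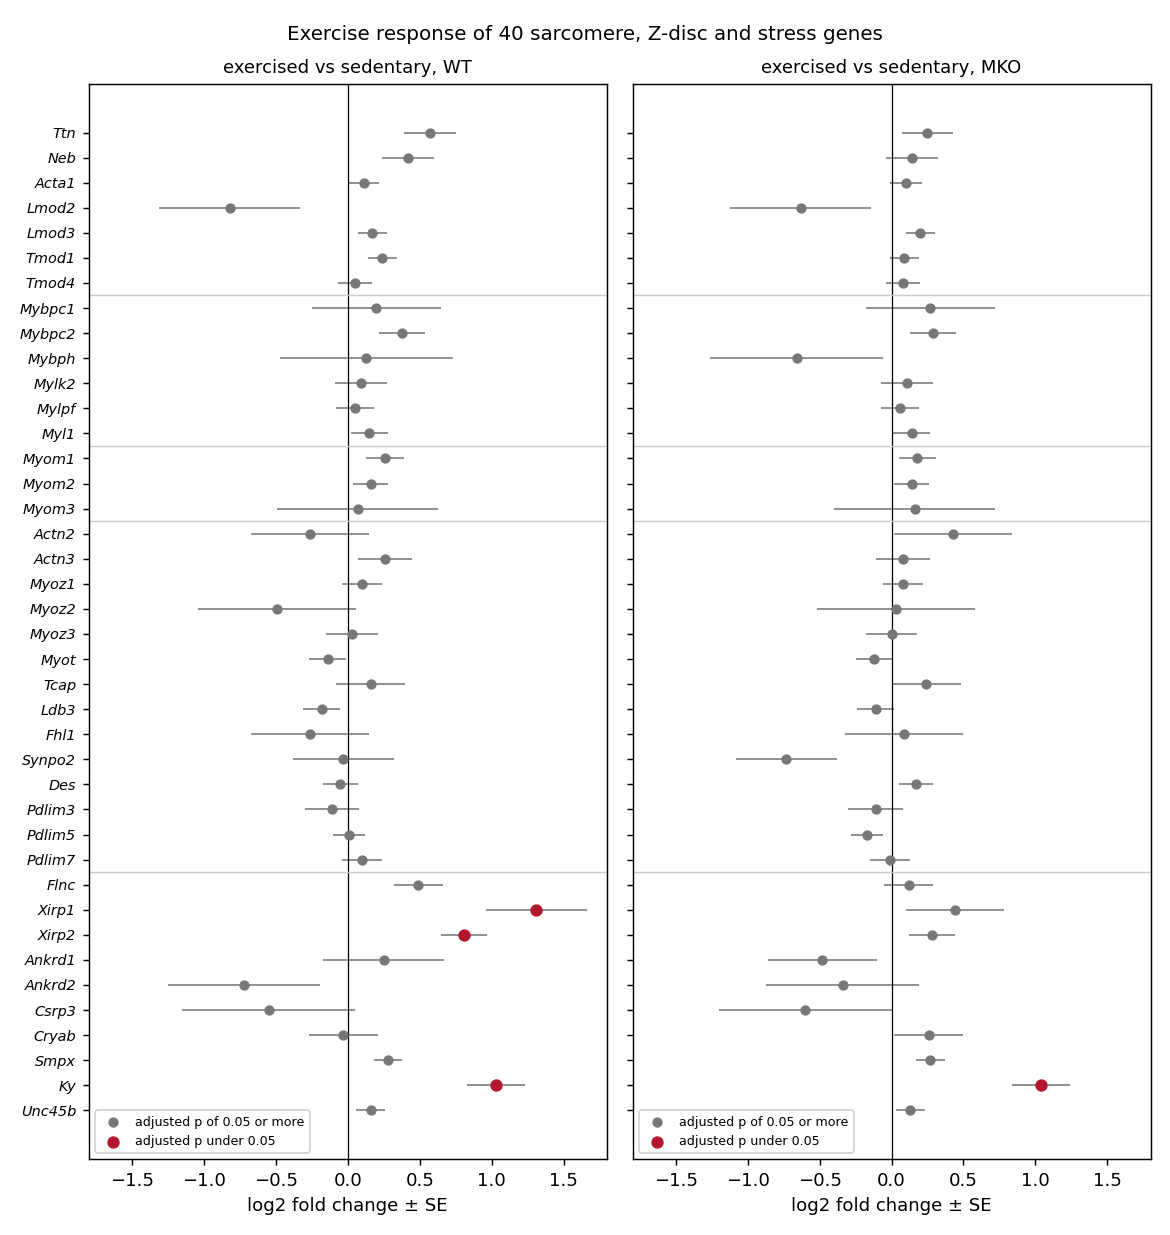
Log2 fold change of exercised over sedentary muscle (points, x axis) with its SE (bars) for each of the 40 genes (y axis, grouped by role with grey lines), in WT on the left and MKO on the right. Red points passed an adjusted p under 0.05, which were Xirp1, Xirp2 and Ky in WT and Ky in MKO.

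The WT groups did not overlap for 14 of the 40 genes, against 27.3% of all genes. Of these, 10 lay higher in all 3 exercised WT libraries than in any sedentary WT library, against 12.5% of all genes, and 4 lay lower, against 14.8%. The 10 were Ttn, Flnc, Xirp1, Xirp2, Myom2, Lmod3, Tmod1, Smpx, Ky and Unc45b, and the 4 were Actn2, Myoz2, Ankrd2 and Lmod2. Actn2 and Myoz2 are the Z-disc isoforms typical of slow and oxidative fibres. The 95% interval of the change lay within 1 on either side of 0 on the log2 scale for 27 of the 40 genes and reached further for the other 13.

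In MKO muscle the run raised 1 of the 40 genes and lowered 0, a share of 2.5% beside 4.05% of all genes (2.29% higher and 1.75% lower). That gene was Ky, with a log2 fold change of 1.04 ± 0.20 (adjusted p = 0.0141 in edgeR), the same size as in WT. The call was lost without sedentary MKO replicate 1, sedentary MKO replicate 2 or exercised MKO replicate 2 (adjusted p = 0.0512, 0.0674 and 0.0625), with values of 1.04, 0.99 and 0.85. Xirp2 had 0.28 ± 0.16 (adjusted p = 0.455) and Xirp1 0.44 ± 0.34 (adjusted p = 0.631). Without sedentary MKO replicate 3 these were 0.39 ± 0.17 and 0.20 ± 0.34, and neither passed. The median over the 40 genes was 0.10, with 28 positive, beside 0.00 and 50.4% over all genes.

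Synaptopodin 2 (Synpo2, also called myopodin), a Z-disc protein that works with filamin C in chaperone-assisted turnover, had the most negative value in MKO. It stood at 172, 210 and 336 CPM in sedentary MKO and 170, 152 and 111 in exercised MKO. The log2 fold change of -0.73 ± 0.35 did not pass (adjusted p = 0.368), and without sedentary MKO replicate 3 it was -0.40. In WT it scattered widely, at 402, 211 and 257 CPM at rest and 162, 418 and 275 after the run. The PDZ-LIM protein Pdlim5 stood at 262, 261 and 323 CPM in sedentary MKO and 243, 257 and 250 in exercised MKO, with a change of -0.17 ± 0.11. Desmin (Des), the intermediate filament that ties Z-discs together, stood at 3151, 3281 and 3373 CPM at rest and 3689, 3471 and 3871 after the run, a change of 0.17 ± 0.12 (adjusted p = 0.577). In WT Des read 3434, 3095 and 4074 CPM at rest and 3154, 3791 and 3308 after the run, with a change of -0.05. The groups of MKO muscle did not overlap for 8 genes, against 21.7% of all genes. Of these 5 lay higher (Ttn, Myom1, Smpx, Ky and Des), against 10.1%, and 3 lower (Ldb3, Synpo2 and Pdlim5), against 11.6%.

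The direct test of whether the response differed between genotypes found 0 of the 40 genes, and 0 of all 14486 (0.0%), at the adjusted threshold in edgeR. At an unadjusted p under 0.05 there were 1 of the 40 and 534 of all genes (3.69%). DESeq2 found 0 of the 40 and 3 of all, and limma-voom 0 and 4. The 1 member was Xirp2, where the MKO response minus the WT response was -0.53 ± 0.22 on the log2 scale (adjusted p = 0.983 in edgeR). Its 95% interval ran from -1.02 to -0.04. For Xirp1 the difference was -0.87 ± 0.49 (interval -1.94 to 0.19), and for Ky it was 0.00 ± 0.28 (interval -0.62 to 0.62). So Xirp1 and Xirp2 passed in WT and not in MKO, yet the difference between the genotypes did not itself pass for either gene.

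The next question is what loss of Feimin changed at rest. Between sedentary MKO and sedentary WT 0 of the 40 genes passed in edgeR, beside 1 of all genes (0.0069%), the Feimin gene itself. At an unadjusted p under 0.05 there were 2 of the 40 and 545 of all, and DESeq2 and limma-voom also called 0 of the 40. The median log2 difference was -0.07, with 13 of the 40 positive, beside 0.00 and 50.5% over all genes. The groups did not overlap for 2 genes, against 10.3% of all genes. These were Ankrd1 on the high side (5.43% of all genes) and Myoz3 on the low side (4.91%).

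Ankrd1 encodes CARP, a titin-binding ankyrin repeat protein whose gene responds to stretch, injury and denervation. It stood at 2.75, 5.39 and 4.87 CPM in sedentary WT (40 to 80 counts) and at 9.33, 8.49 and 14.1 in sedentary MKO (127 to 233 counts). After the run it stood at 6.51, 3.32 and 5.60 CPM in WT and at 7.12, 3.63 and 12.1 in MKO. The sedentary groups were apart and the exercised ones overlapped. The log2 difference at rest was 1.29 ± 0.40 (adjusted p = 1.0 in edgeR), and over the alternatives it ranged from 1.03 to 1.67 with no call. The highest sedentary library, MKO replicate 3, is the one that stands apart, and without it the difference was 1.03 ± 0.43.

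Myoz3, the calsarcin of fast fibres, stood at 16.8, 16.2 and 23.7 CPM in sedentary WT and 14.7, 15.4 and 14.9 in sedentary MKO, a difference of -0.33 ± 0.18. After the run it stood at 16.8, 16.3 and 24.8 CPM in WT and at 15.8, 15.9 and 13.2 in MKO, a difference of -0.37 ± 0.18. Each MKO library lay below each WT library of the same state, and neither difference passed (adjusted p = 1.0 and 0.337). In each state 1 WT library was far above the others, and the differences were -0.14 ± 0.17 without sedentary WT replicate 4 and -0.15 ± 0.16 without exercised WT replicate 5. The skeletal myosin light chain kinase Mylk2, which phosphorylates the regulatory light chain, was also lower on average in MKO, with groups that overlapped at rest and not after the run. Its levels were 721, 514 and 883 CPM in sedentary WT, 485, 577 and 502 in sedentary MKO, 704, 795 and 747 in exercised WT, with 592, 621 and 471 in exercised MKO. The log2 differences were -0.44 ± 0.18 at rest (adjusted p = 1.0) and -0.42 ± 0.18 after the run (adjusted p = 0.28).

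Myotilin (Myot), a Z-disc crosslinker, stood at 1126, 1022 and 1196 CPM in sedentary WT and 1035, 1104 and 784 in sedentary MKO, with 973, 922 and 1142 and then 943, 886 and 860 after the run. These groups overlapped in both states. Mybph, a myosin-binding protein, had the highest coefficient of variation of all members (67.6% over the 12 libraries), with 44.2, 202 and 62.2 CPM in sedentary WT, 101, 98.8 and 383 in sedentary MKO, 157, 93.1 and 86.9 in exercised WT, with 158, 90.6 and 121 in exercised MKO. Its difference at rest of 0.92 ± 0.61 came from sedentary MKO replicate 3 (383 CPM) and was -0.04 ± 0.53 without that library. Sedentary WT replicate 3 (202 CPM) also lay far above its group. Exons of Mybph overlap those of Adora1 on the other strand over 1162 bases, and Adora1 itself had 6 to 72 counts.

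**Figure D3:**
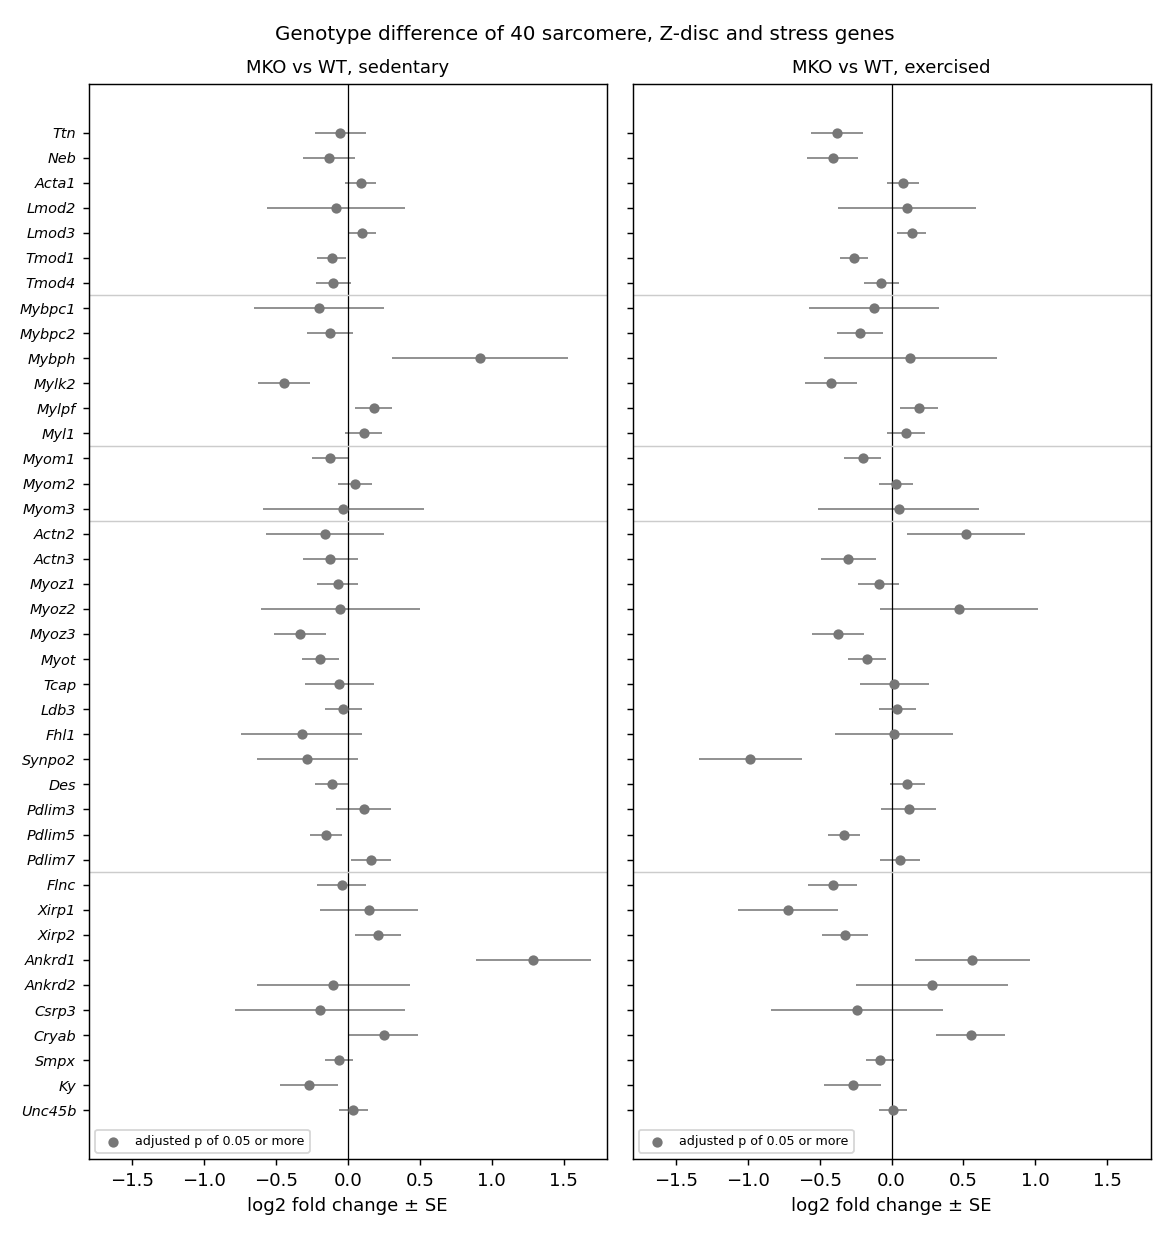
Log2 difference of MKO over WT (points, x axis) with its SE (bars) for each of the 40 genes (y axis, grouped by role with grey lines), in sedentary muscle on the left and exercised muscle on the right. All points are grey because no gene passed an adjusted p under 0.05, and on the left the bars are longest for Mybph, Csrp3 and Myom3 (SE 0.61, 0.59 and 0.56).

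After the run the genotypes differed in 0 of the 40 genes by edgeR, beside 5 of all genes (0.0345%), of which 1 was higher (0.0069%) and 4 lower (0.0276%) in MKO. At an unadjusted p under 0.05 there were 7 of the 40 and 2319 of all (16.0%), and DESeq2 and limma-voom called 0 of the 40. The median log2 difference was -0.03, with 20 positive. The groups did not overlap for 12 genes, against 23.1% of all genes, with 2 on the high side (Actn2 and Myoz2, against 11.1%) and 10 on the low side (against 12%). The 10 were Ttn, Neb, Actn3, Myoz3, Flnc, Xirp1, Xirp2, Tmod1, Pdlim5 and Mylk2. This comparison and the WT response share the exercised WT libraries, so the values of one are not independent of the other.

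Pdlim5 had the smallest p, with 317, 289 and 340 CPM in exercised WT, with 243, 257 and 250 in exercised MKO, a difference of -0.33 ± 0.11 (adjusted p = 0.229). In sedentary WT it stood at 282, 350 and 306 CPM. Synpo2 differed by -0.98 ± 0.36 (adjusted p = 0.235), or by -0.61 without exercised WT replicate 4, its highest library. Tmod1 differed by -0.26 ± 0.10 (adjusted p = 0.264) and Flnc by -0.41 ± 0.17 (adjusted p = 0.279). None of these passed, although each group of 3 was separate for Pdlim5, Tmod1 and Flnc. For Ttn, Neb and Flnc the differences of -0.38, -0.41 and -0.41 shrank to -0.12, -0.16 and -0.24 without exercised WT replicate 5. On the other side exercised MKO replicate 4 was the lowest of its group for Ttn (5048 CPM) and Neb (2403 CPM), and not for Flnc. Actn2 read 646, 604 and 650 CPM in exercised WT, below each of the 811, 775 and 1143 of exercised MKO. At rest it read 724, 889 and 657 in WT and 940, 892 and 200 in MKO, and the difference of the responses was 0.68 ± 0.58 (adjusted p = 0.983), or 0.24 ± 0.22 without sedentary MKO replicate 3. Cryab differed by 0.55 ± 0.24 (adjusted p = 0.289), or by 0.36 ± 0.23 without exercised WT replicate 5, with exercised MKO at 823 to 1137 CPM and exercised WT at 499 to 899.

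Exercised WT replicate 5 differed from the other 2 libraries of its group by gene length. Over genes with a mean of at least 10 CPM, its log2 ratio to replicates 3 and 4 (pseudocount 0.5 CPM) had a median of -0.26 in the 486 genes with at most 1000 exonic bases, and of 0.26 in the 642 with more than 10000. The medians between were -0.23, -0.07 and 0.09. In the other 11 libraries the bin medians stayed between -0.16 and 0.19. Those of exercised MKO replicate 4 ran the other way, from 0.16 in the shortest genes to -0.13 in the longest. Those of exercised WT replicate 4 ran from 0.19 to -0.16, against a mean that includes replicate 5. Among the members the long genes were mostly high there and the short ones mostly low, with wide scatter between. Ttn (117 kb), Neb (26.6 kb) and Xirp1 (5.84 kb) had ratios of 0.66, Flnc (9.40 kb) 0.47 and Xirp2 (12 kb) 0.37, while Tcap (0.948 kb) had -0.46, Mylpf (1.06 kb) -0.33 and Smpx (2.27 kb) -0.28. Ky (5.88 kb) lay at 0.09 and Synpo2 (13.1 kb) at 0.08. The part of this pattern in the values of Ttn, Neb, Flnc and the Xin genes was not tested beyond leaving the library out.

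**Figure D4:**
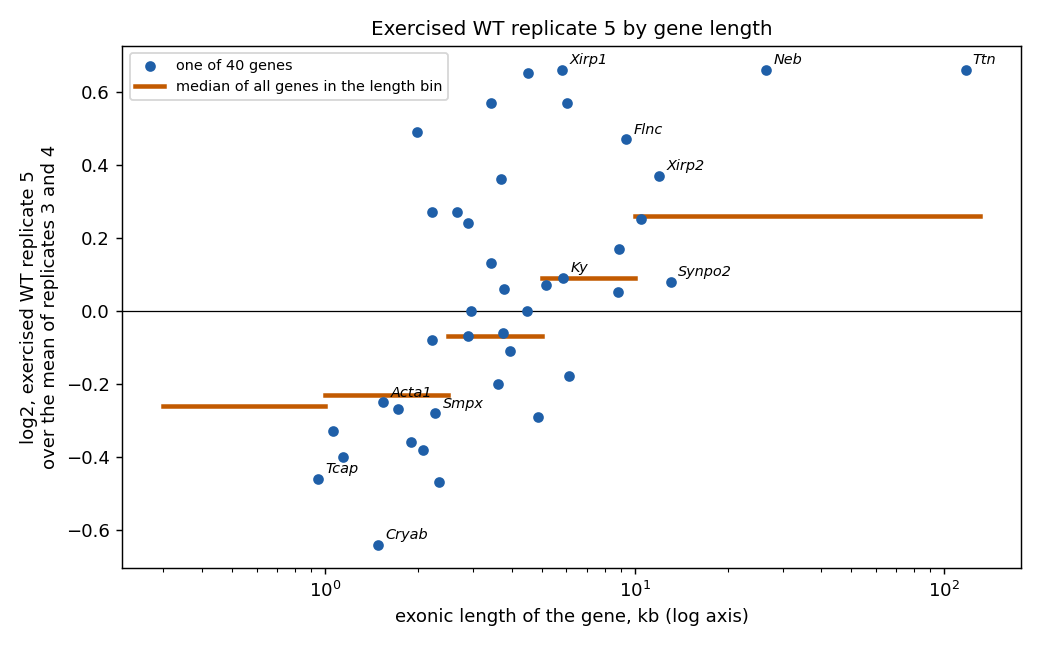
Log2 ratio of exercised WT replicate 5 to the mean of replicates 3 and 4 (y axis) against the exonic length of the gene in kb (x axis, log scale), with 1 point for each of the 40 genes and orange bars for the median of all genes in each length bin. The bars climb from -0.26 for the shortest genes to 0.26 for the longest, and Ttn and Neb at the right lie at 0.66.

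Sedentary MKO replicate 3 carried another pattern within these genes. Of the 40, 9 lay below 50% of the median of the other 11 libraries there and 2 above 200%, and it held the lowest value of the 12 for 13 genes. The 9 were the slow or oxidative fibre isoforms Actn2, Mybpc1, Myoz2, Myom3 and Csrp3, with Ankrd2, Lmod2, Fhl1 and Xirp1. Actn2 stood at 200 CPM there against 604 to 1143 in the other libraries, Myoz2 at 13.9 against 62.1 to 140, and Myom3 at 3.75 against 22.5 to 45.8. Csrp3 stood at 5.99 against 20.9 to 77.7, Ankrd2 at 21.8 against 66.2 to 196, and Mybpc1 at 149 against 555 to 958. The 2 above 200% were Mybph (383 CPM) and Ankrd1 (14.1 CPM).

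In the same library the 10 slow muscle genes summed to 136 CPM against 612 to 1927 in the other 11, and the slow myosin Myh7 stood at 11.2 CPM against 98.6 to 423. The fast muscle genes summed to 116606 CPM, within the range of the other libraries (101740 to 151174). Single genes of both lists departed from this: the fast myosins Myh1 (1748 against 2613 to 3990 CPM) and Myh2 (991 against 1912 to 2907) lay below every other library, and Casq2 and Myl6b of the slow list stood at 114% and 104% of the median of the others. Ratios of fast to slow partner genes per kb of exon restate the same low values and are no separate support. Their slow partners Actn2, Mybpc1, Myoz2 and Myom3 are among the genes listed above as low. Actn3 over Actn2 was 39.1 there and 5.16 to 16.3 in the other libraries, Mybpc2 over Mybpc1 was 29.2 and 4.59 to 10.9, Myoz1 over Myoz2 was 284 and 26.4 to 78.0, and Myom2 over Myom3 was 178 and 11.8 to 26.1. The fast partners themselves stood at 89.5% to 115% of the median of the other 11 libraries.

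**Figure D5:**
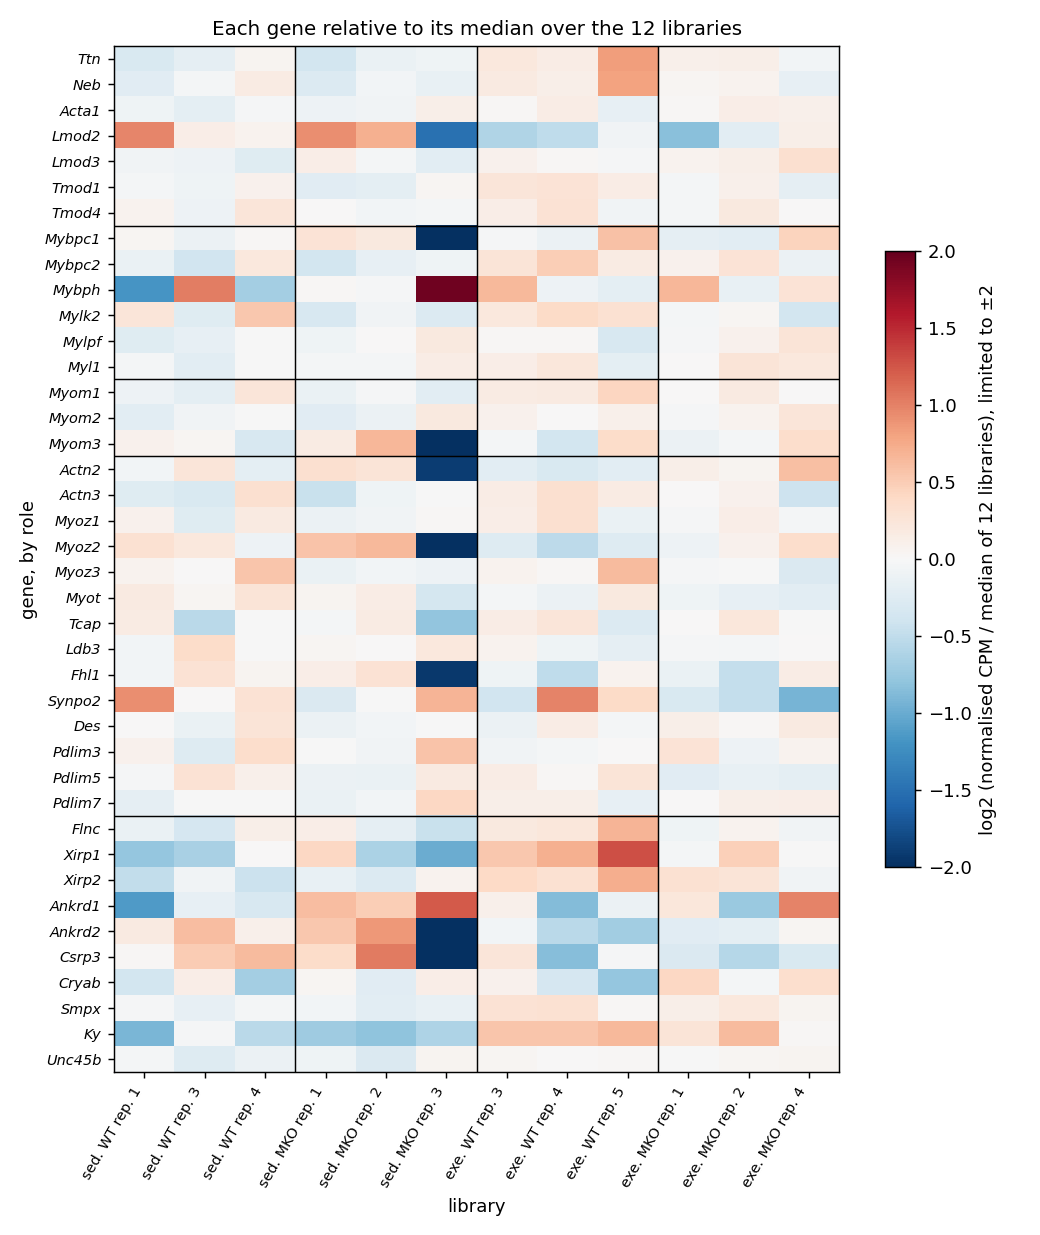
Each of the 40 genes (rows, grouped by role) in each of the 12 libraries (columns, grouped by state and genotype), as the log2 ratio to its median over the 12, with colours limited to 2 on either side of 0. The dark blue cells gather in sedentary MKO replicate 3, where 9 genes lie below 50% of the median of the other 11, and Ky is blue or near white in the sedentary columns and red or near white in the exercised ones.

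This library set the sign of 15 of the 40 differences between the sedentary genotypes, of 9 of the 40 MKO responses to the run and of 16 of the 40 differences of the responses. With it Actn2, Mybpc1, Myoz2, Ankrd2, Csrp3, Myom3, Lmod2 and Fhl1 had log2 differences of -0.32 to -0.03. Without it the same 8 had values of 0.10 to 0.48, at adjusted p = 1.0 throughout. The errors of these genes also fell, for Myoz2 from 0.55 to 0.15, and this moved the WT response as well, since all groups share 1 estimate of the spread. Ankrd2, at 122, 165 and 115 CPM in sedentary WT and 104, 73.8 and 66.2 in exercised WT, then fell by 0.70 ± 0.18 on the log2 scale (adjusted p = 0.0388 in edgeR) and so joined the 3 calls.

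In MKO muscle, with 2 sedentary libraries left, Ankrd2 had -0.83 ± 0.20 (adjusted p = 0.0539), Csrp3 -1.12 ± 0.29 (adjusted p = 0.0757) and Lmod2 -1.07 ± 0.31 (adjusted p = 0.108). None of these passed. With all 3 outlying libraries left out together (this one, exercised WT replicate 5 and exercised MKO replicate 4) the WT calls were Myoz2, Xirp2, Smpx and Ky. In MKO they were then Ky and Mybpc1 (-0.43 ± 0.09, adjusted p = 0.0413), with 2 libraries in each group. These genes were singled out after their values were seen.

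Around the 40 genes, 4 lists of related genes were followed by the same test. Of all genes 8.24% were called in WT (4.14% higher, 4.1% lower) and 4.05% in MKO (2.29% higher, 1.75% lower). The lists were chosen with earlier results of these data known, so their shares are not an independent test against all genes. Of 32 other sarcomere and Z-disc genes tested, 1 rose and 1 fell in WT. Klhl40, which stabilises thin filament proteins, went from 71.6 ± 4.99 to 130 ± 9.78 CPM (log2 fold change 0.86 ± 0.11, adjusted p = 0.000497 in edgeR), and the tropomodulin Tmod2 from 4.80 ± 0.300 to 2.72 ± 0.278. In MKO only Klhl40 of this list passed (0.47 ± 0.11, adjusted p = 0.0316). Of 29 costamere and focal adhesion genes, 2 rose in WT, paxillin (Pxn, 0.70 ± 0.18) and testin (Tes, 0.96 ± 0.18), and 0 passed in MKO.

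Of 28 genes of mechanical signalling through SRF, MRTF, YAP and TEAD, 4 rose and 1 fell in each genotype. The cytoplasmic actin Actg1 went from 56.7 ± 7.50 to 130 ± 9.80 CPM in WT and from 62.3 ± 14.3 to 114 ± 7.43 in MKO. The YAP target kinase Nuak2 and the lamin gene Lmna rose in both, the stretch-gated channel Piezo1 in WT (0.88 ± 0.24) and Tead4 in MKO (0.86 ± 0.19). The LIM protein Ajuba fell by 2.15 in WT and 1.41 in MKO on the log2 scale, from 2.18 ± 0.536 and 2.09 ± 0.349 CPM. Srf itself had 0.15 ± 0.09 and 0.19 ± 0.09 and did not pass.

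Of 16 chaperones that serve the sarcomere and filamin, 3 rose and 0 fell in each genotype. Hsp90aa1, which folds myosin together with the Unc45 proteins, went from 12.4 ± 1.08 to 41.5 ± 7.98 CPM in WT and from 15.1 ± 3.61 to 39.7 ± 4.79 in MKO. Unc45a, the general-cell relative of the muscle member Unc45b, went from 5.39 ± 0.831 to 10.6 ± 0.147 CPM in WT and from 6.67 ± 0.523 to 11.2 ± 0.103 in MKO. Unc45b itself had 0.16 and 0.13 on the log2 scale and did not pass. Hspa8 rose by 0.42 ± 0.11 and 0.47 ± 0.11. Bag3, the cochaperone of filamin turnover, had 0.42 ± 0.14 and 0.46 ± 0.14 and did not pass (adjusted p = 0.101 and 0.115).

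Between genotypes, at rest or after the run, and for the difference of the responses, 0 genes of these 4 lists passed. The 10 slow and 10 fast muscle genes had 0 calls in all 5 comparisons. Some markers of other cells moved with the run. Of all genes 4.1% were called lower and 4.14% higher in WT, and 1.75% lower and 2.29% higher in MKO. Of 11 smooth muscle and pericyte genes 3 fell in WT (Tagln, Pdgfrb and Notch3) and 2 in MKO. Of 8 fibroblast genes 4 fell in WT and 3 in MKO. The 8 endothelial genes went both ways. Cldn5 rose (log2 fold changes of 1.61 in WT and 0.95 in MKO), Tek fell in both (-0.97 and -1.01), and Vwf fell in MKO (-0.8). Fmod of the tendon list and C1qc of the macrophage list fell in WT, and Vcam1 and Chodl of the satellite cell list in MKO. The smooth muscle and pericyte genes summed to 525 to 639 CPM in sedentary WT and 489 to 592 in exercised WT. The fibroblast genes summed to 470 to 599 CPM in sedentary WT and 280 to 310 in exercised WT. Between MKO and WT 8 of 8 fibroblast and 8 of 8 macrophage genes were positive in each state, with 0 passing. Of all genes 50.5% were positive at rest and 51.1% after the run. Some of these values were near 0, such as Dcn at 0.02 at rest and 0.05 after the run. Genes of a list can move together, so they are not separate observations. The macrophage genes summed to 71.0 to 104 CPM in sedentary WT and 112 to 155 in sedentary MKO, and to 45.8 to 57.1 and 61.0 to 147 after the run. The part of other cells in the values of the 40 genes was not tested.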

How the data were processed

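Raw counts per Ensembl gene, as deposited by the authors, were used for 43432 identifiers in 12 libraries of total RNA from mouse muscle, 3 in each of 4 groups. The labels mention 18 libraries; the 12 above were used. Per the submitters' processing notes, the tools were HISAT2 (2.2.1), StringTie (2.1.4), SAMtools (1.9), DESeq2 (1.40.2), FastQC (0.12.1) and R (4.3), on GRCm38.p6 and mm10. The counting tool, its treatment of strand and of reads with several matches, and the gene annotation were not given in the sources used. One misspelt column was taken as exercised MKO replicate 4. Symbols, positions and exonic lengths came from GENCODE M21 (GRCm38.p6), in which 884 identifiers, with 0.0875% of the counts, had no symbol.

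Counts were tested with edgeR 4.0.16 in R 4.3.3: filterByExpr (minimum count 10, minimum total 15) left 14486 genes, TMM factors were 0.928 to 1.15, and 1 quasi-likelihood model with 1 mean per group had 8 residual degrees of freedom. The threshold was an adjusted p (Benjamini-Hochberg, over all genes) under 0.05. The standard error was the absolute log2 fold change over the root of F, and intervals are 95%. The biological coefficient of variation was 15.3%. Alternatives were DESeq2 1.42.0, limma-voom 3.58.1, 2 other scalings, 2 other filters, a replicate block, only the compared groups, each library left out and 3 outlying libraries left out. The fit was tested on simulated data. No replicates were duplicates.

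The members and lists were chosen with earlier results of these data known, and so was the rule for values in every library: members that passed, and the 8 with the smallest p in each comparison. Mkl1, Mkl2, Ctgf and Cyr61 were matched as Mrtfa, Mrtfb, Ccn2 and Ccn1. Plots used matplotlib 3.10.9 (Python 3.11.15). A further promoter sequence is not reported here.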

Additional observations from a re-analysis of the deposited data

How the results depend on the processing

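In WT the run raised 3 members. DESeq2 called 5 (adding Ttn and Smpx), the replicate block 0, and single libraries left out gave 2 to 4. With the block the values were 1.16 for Xirp1, 0.68 for Xirp2 and 0.98 for Ky (adjusted p = 0.178, 0.0513 and 0.0604). In MKO the count of 1 became 0 to 1 with single libraries left out and 2 without the 3 outlying libraries, and stayed 1 with the block. Between genotypes and for the difference of the responses 0 members passed under every alternative run. Over all genes the block called 602 in WT, 361 in MKO, 0 between genotypes at rest and 2 after the run. Between genotypes at rest the 1 call became 3 with DESeq2, 3 with limma-voom, 2 with only the compared groups and 3 without the outlying libraries. After the run the 5 became 84 with DESeq2 and 2 with no filter, and for the difference of the responses the 0 became 3 with DESeq2, 4 with limma-voom, 1 with total counts and 3 without the outlying libraries. Leaving out single libraries gave 808 to 1303 calls in WT, 316 to 629 in MKO (316 without exercised MKO replicate 2, 341 without sedentary MKO replicate 2), 1 to 3 and 2 to 108 between genotypes (108 without exercised MKO replicate 2), and 0 to 3 for the difference. The causes were not tested. Same-numbered libraries correlated at -0.028 to 0.0759 in at most 2 pairs per comparison. So few pairs cannot tell whether these libraries share more than a number. Scaling by total counts moved the median of all genes to -0.10 in WT and -0.15 in MKO and that of the members from 0.10 to 0.01 in WT and to -0.04 in MKO. The block moved the members' median between genotypes after the run from -0.03 to -0.16. With scaling by total counts the split of calls in WT, 599 higher and 594 lower, became 469 and 863. In MKO 332 and 254 became 259 and 596 with that scaling. Of 2184 values of the 21 members with values in every library, 2165 kept their side of the threshold, 15 lost a call, 4 gained one and 0 called values changed sign. Counts were low for Ankrd1 (40 to 233), which limits the precision of its values.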
